A study of Mus musculus with 12 samples.

Results

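Gene expression in fibroblasts that received SKO together with microRNA cluster B was set against fibroblasts that received SKO with a blank control virus, at 4 and at 8 days after the first infection. The comparison uses 4 of the 12 arrays of the series, 2 with cluster B and 2 with blank virus, chosen by their titles and matched by day. All cells were mouse embryonic fibroblasts (MEFs) from a cross of OG2 with 129/sv mice, kept in medium for mouse embryonic stem cells. OG2 mice carry a green fluorescent reporter under the control of the Oct4 gene. The labels do not spell out SKO. It is taken here as Sox2, Klf4 and Oct4, factors used to reprogram fibroblasts to pluripotency, so both the cluster B and the blank virus cells carried these factors. MicroRNA clusters were carried by retrovirus, and the labels do not say which microRNAs cluster B holds. Further arrays of the series had cluster C with SKO, and cluster B, cluster C or blank virus without SKO. Each combination of SKO, virus and day had 1 array, and nothing says whether the day 4 and day 8 arrays came from separate infections. A free-text note repeated on all 12 arrays names a pre-iPSC line and day 3, which goes against the titles. The titles were used.

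MicroRNA clusters are short runs of hairpins cut from 1 transcript. Each mature microRNA guides a silencing complex to messenger RNAs through its seed, bases 2 to 8, and the messages it reaches are repressed or degraded. In reprogramming, microRNAs that pluripotent cells make in quantity are known to change how readily fibroblasts lose their mesenchymal character and pass through the cell cycle.

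The microRNAs whose probe sets were higher with cluster B on both days lie together on the X chromosome, chrX:52741693-52742567 on the minus strand of GRCm38.p6, where RefSeq annotates 6 hairpins within 875 bases. Their mature sequences from RefSeq are shown because they place the 6 in seed families. Capitals mark the seed, and Mir18b had no named probe set of its own among those analysed here.
mmu-miR-106a-5p: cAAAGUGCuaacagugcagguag
mmu-miR-20b-5p: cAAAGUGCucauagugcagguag
mmu-miR-18b-5p: uAAGGUGCaucuagugcuguuag
mmu-miR-19b-3p: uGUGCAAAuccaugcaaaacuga
mmu-miR-92a-3p: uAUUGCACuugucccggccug
mmu-miR-363-3p: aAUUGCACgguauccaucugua
A pair of further sequences is shown for comparison. The seed AAAGUGC of miR-106a and miR-20b is also that of miR-17-5p, from the related cluster on chromosome 14, and the seed AUUGCAC of miR-92a and miR-363 is also that of miR-367-3p, from the Mir302 cluster on chromosome 3.
mmu-miR-17-5p: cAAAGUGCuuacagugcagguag
mmu-miR-367-3p: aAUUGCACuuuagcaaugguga

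The first question was which genes differed from blank virus in the same direction on both days. Expression was read as deposited log2 values of 19938 genes, whose array medians lay between 4.98 and 5.07 and lower quartiles between 3.48 and 3.68. A value below the lower quartile is dim, and the size of a difference from it is uncertain. Mir363 was higher with cluster B and passed the test. Its level was 5.36 on day 4 and 5.13 on day 8 with cluster B, against 1.82 and 2.28 with blank virus. Both cluster B arrays lay far above both blank virus arrays, and the mean difference was 3.20 ± 0.32 on the log2 scale (SE, 2 arrays against 2), or 9.18-fold (limma adjusted p = 0.0353). The call held on the 4 arrays with day as a block (limma adjusted p = 0.0211) and was lost without any 1 of the 4 arrays compared (0.286 to 1.0) or of the 4 cluster C arrays (0.12 to 0.129). In the limma test, 2 of 19938 genes passed an adjusted p of 0.05, which is 0.01%, and 614 (3.08%) had an unadjusted p under 0.05. The SE is taken from how virus effects differed between the days over all 12 arrays.

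The neighbours of Mir363 were higher on both days by less, and none of them passed the test (limma adjusted p = 1.0 for each). Mir20b was at 4.12 and 3.60 with cluster B on days 4 and 8, against 2.51 and 2.43 with blank virus. Mir106a was at 3.77 and 3.40 with cluster B, against 2.09 and 2.40 with blank virus. Mir19b-2 was at 3.20 and 2.99 with cluster B, against 1.85 and 2.09 with blank virus. All levels of Mir19b-2 lie below the lower quartile of their arrays and are dim. So are the blank virus levels of Mir20b and Mir106a and the day 8 level of Mir106a with cluster B, and the sizes of these differences are uncertain. For these 3 genes both cluster B arrays were above both blank virus arrays, by mean differences of 1.39 ± 0.32, 1.34 ± 0.26 and 1.12 ± 0.29. Mir92-2 was at 3.80 and 3.85 with cluster B, against dim levels of 3.43 and 3.12 with blank virus, a mean difference of 0.55 ± 0.20. The groups did not overlap there either, although the day 4 difference of 0.37 was short of 1.5-fold. Such separation of groups is given as a description, because the share of all genes without overlap was not counted.

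Of 296 microRNA genes measured, the 4 named above (Mir363, Mir20b, Mir106a and Mir19b-2) were higher by 1.5-fold or more on both days. None of the 291 microRNA genes outside this cluster was, and the closest, Mir376a, had a smaller day difference of 0.29. In the related cluster on chromosome 14, whose hairpins are close copies, Mir17 differed by 0.27 on day 4 and 0.66 on day 8, Mir20a by 0.68 and -0.05, and Mir19b-1 by 1.21 and 0.12. How far probes for one copy read the other cannot be told from these values, so the split between Mir20b and Mir20a, Mir106a and Mir17, and Mir19b-2 and Mir19b-1 is uncertain. Whether the probe sets read mature microRNAs or the longer viral transcript was not tested.

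**Figure D1:**
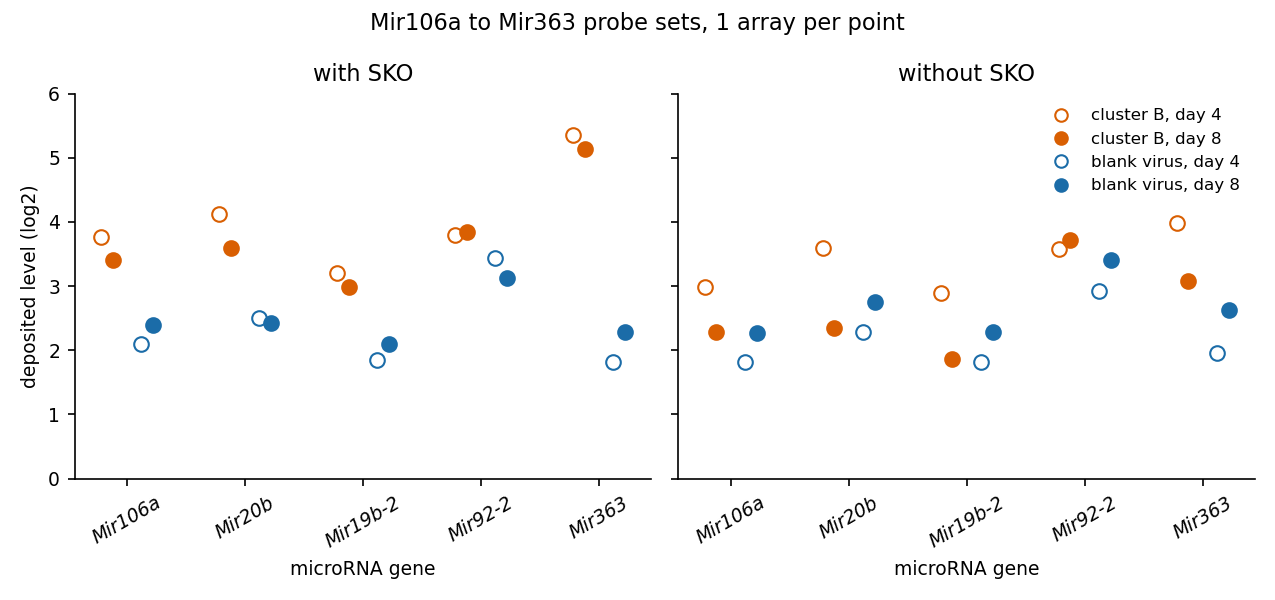
Deposited log2 levels of the 5 measured microRNA genes of the X chromosome cluster on the arrays with cluster B (orange, left of each pair) and blank virus (blue), with SKO in the left panel and without SKO in the right, open points for day 4 and filled for day 8. With SKO all cluster B points lie above the blank virus points of the same gene, and Mir363 is separated most, at 5.36 and 5.13 against 1.82 and 2.28.

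Without SKO the same cluster gave a smaller and less even signal. Mir363 levels in that arm were 3.98 and 3.08 with cluster B, against 1.95 and 2.63 with blank virus. The difference was 2.03 on day 4 and 0.45 on day 8. Mir20b differed by 1.33 on day 4 and by -0.40 on day 8, and Mir19b-2 by 1.06 and -0.42, so the sign was kept on day 4 only. The effect on Mir363 with SKO was 1.96 ± 0.45 greater than without SKO, which did not pass adjustment over all genes (limma adjusted p = 0.919, unadjusted p = 0.00185). No gene passed the test of the difference between the arms, and 1036 (5.2%) had an unadjusted p under 0.05. The arm without SKO carries the label Group2 throughout, so SKO and that grouping cannot be told apart. With SKO and cluster C, Mir363 lay at 2.20 and 2.53. Cluster B exceeded cluster C there by 2.88 (limma adjusted p = 0.0414), 1 of 4 genes (0.0201%) past the threshold between the clusters, where 5.53% of genes had an unadjusted p under 0.05.

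Olfr354, an olfactory receptor gene on chromosome 2, was the other gene past the threshold and it fell. Its level was 1.79 on day 4 and 2.55 on day 8 with cluster B, against 3.40 and 4.04 with blank virus. The groups did not overlap, and the mean difference was -1.55 ± 0.13, to 0.342 of the blank virus level (limma adjusted p = 0.0143). The call was lost with limma on the 4 arrays with day as a block (adjusted p = 0.108) and on the 6 arrays with SKO (0.0989). Without any 1 of the 4 arrays compared its adjusted p was 0.225 to 0.63. Both cluster B levels lie below the lower quartile of their arrays. The same probe set was lower without SKO too, at 2.33 and 2.0 with cluster B against 3.28 and 3.05 with blank virus, which are separate arrays (difference -0.95 and -1.05, limma adjusted p = 0.261). No gene passed for cluster B without SKO, and 1169 (5.86%) had an unadjusted p under 0.05. With cluster C it was at 2.07 and 3.01 with SKO and at 2.36 and 2.21 without. None of the 8 arrays of either cluster exceeded 3.01, and none of the 4 blank virus arrays was below 3.05. The gap between the sides was small. Without SKO all levels of this probe set lie below the lower quartile of their arrays (3.54 and 3.68 for blank virus), so their differences are uncertain in size. The 4 arrays compared with SKO chose this gene, so their part in that split is a description. Teddm3, chosen after its values were seen, was at 2.23 and 2.85 with cluster B, against 3.53 and 4.0 with blank virus. Its mean difference of -1.23 ± 0.19 missed the threshold (limma adjusted p = 0.667), and without SKO its differences were 0.92 and 0.28.

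Genes past 1.5-fold on both days were few. On day 4 alone, 207 genes were higher (1.04%) and 372 lower (1.87%), and on day 8, 193 were higher (0.968%) and 183 lower (0.918%). In the same direction on both days there were 11 higher (0.0552%) and 8 lower (0.0401%), beside 24 genes past 1.5-fold in opposite directions. The order of these counts depended on the setting: at 2-fold 5 genes went the same way and 2 opposite ways, and among genes with a mean of at least 5 the counts at 1.5-fold were 6 and 6. Across genes, day 4 and day 8 differences had a Pearson correlation of -0.02 (over 19938 genes, which share the arrays and are not independent). Above 0 on both days were 24.4% of genes and below 0 on both days 25.2%. The SD of the differences over genes was 0.26 on day 4 and 0.22 on day 8. On day 4 the difference also moved with brightness, with medians of -0.08 and -0.12 in the first and the second of 4 equal bins from dim to bright genes and of 0.06 and 0.05 in the other two. The day 4 cluster B array had the lowest lower quartile (3.48) and the highest upper quartile (6.81) of the 12 arrays. After quantile normalization the day 4 median of genes with a mean of at least 5 was -0.01, against 0.05 before. The part of brightness in single genes' differences was not tested.

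**Figure D2:**
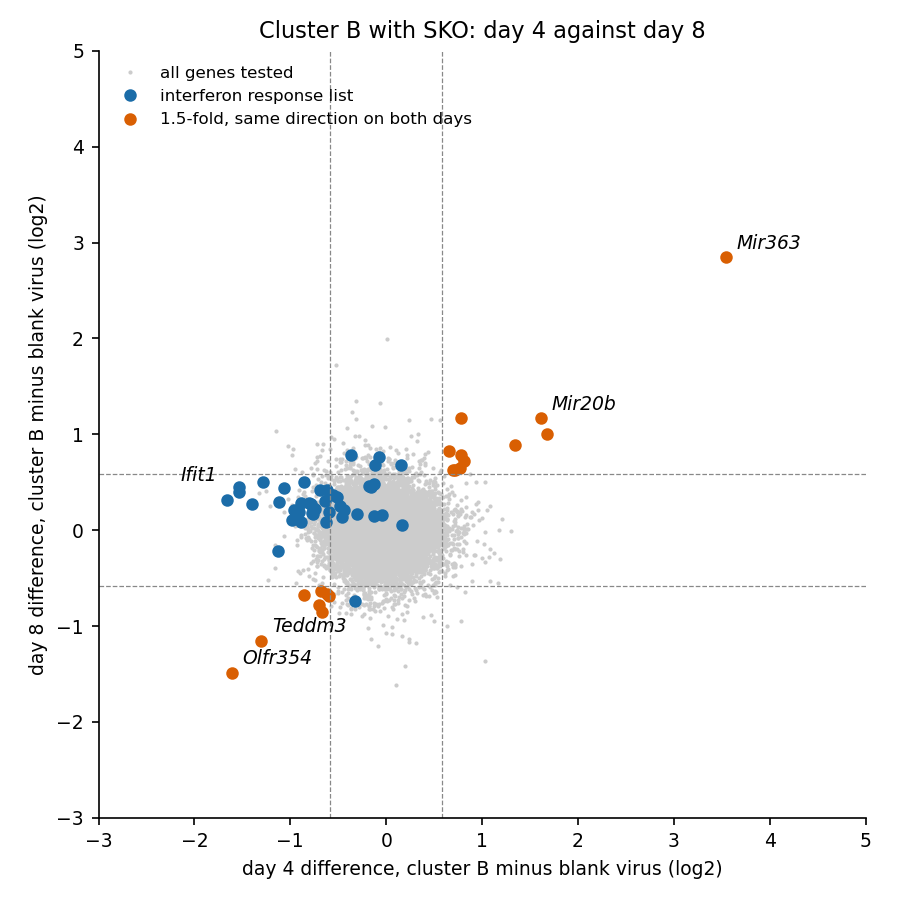
Difference of cluster B minus blank virus with SKO on day 4 (x axis) and day 8 (y axis), both log2, for all 19938 genes (grey), with the 19 genes past 1.5-fold in the same direction on both days in orange and the interferon response list in blue. Dashed lines mark 1.5-fold. Mir363 stands alone at the upper right and Olfr354 at the lower left, and most interferon genes lie left of 0 and above 0.

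The other 7 genes higher by 1.5-fold on both days were Chml, Pcdhb11, Fundc1, Snora44, H1f1, Gzme and Itpa. The other 6 lower ones, besides Olfr354 and Teddm3, were Dcpp3, 9430097D07Rik, Lrrc75b, Rprl1, Tuba3b and Pramel19. None of these 13 passed the test (limma adjusted p = 1.0 for each). Levels of Pcdhb11 (3.39 and 3.39 with cluster B, against 2.62 and 2.61 with blank virus) and Tuba3b (1.76 and 1.96, against 2.42 and 2.82) were dim. The level of Snora44, a small nucleolar RNA gene that guides modification of ribosomal RNA, was 6.36 and 6.72 with cluster B, against 5.70 and 5.89 with blank virus. Of the 11 genes higher on both days with SKO, 2 were above 0 on both days without SKO, against 25.9% of all genes. Of the 8 lower ones, 2 were below 0 on both days without SKO, against 22.5% of all genes.

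Among brighter genes (mean of the 4 arrays at least 5), the 15 higher and 15 lower genes with the largest recurring difference were followed further. All 30 had an adjusted p of 1.0 in the limma test, and 14 of each 15 had an unadjusted p under 0.05. They were chosen for their difference on these same 4 arrays, so that count is a description. So is each statement, for these and for all other genes named, that the groups do not overlap. The share of all genes without overlap was not counted. Fundc1, a receptor for the removal of mitochondria in the outer membrane, was at 7.24 and 7.46 with cluster B, against 6.43 and 6.74 with blank virus. Atpif1, the inhibitor of the ATP synthase, was at 9.03 and 9.22 with cluster B, against 8.53 and 8.72 with blank virus. Cox6b1, a subunit of cytochrome c oxidase, was at 8.51 and 8.49 with cluster B, against 7.98 and 8.02 with blank virus. Both arrays with cluster B exceeded both with blank virus for each of these 3 genes. Against the same blank virus arrays, cluster C with SKO gave 0.59 and 0.53 for Atpif1 and 0.90 and 0.45 for Cox6b1. For Fundc1 cluster C gave 0.03 and 0.63.

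Histone genes were the next group. H1f1, a linker histone gene, was at 9.91 and 9.27 with cluster B, against 9.14 and 8.62 with blank virus. H2bc3, a core histone H2B gene, was at 7.40 and 7.20 with cluster B, against 6.53 and 6.61 with blank virus. The groups did not overlap for either gene, with mean differences of 0.71 ± 0.20 and 0.73 ± 0.18. Cluster C with SKO, against the same blank virus arrays, was higher too, by 0.64 and 1.06 for H1f1 and 0.70 and 0.75 for H2bc3. The wider list of replication-dependent histones did not keep this direction. Of its 23 measured members 20 were above 0 on day 4 (49.4% of all genes) and 9 on day 8 (49.8%), and its median was 0.20 on day 4 and -0.13 on day 8 (-0.03 among members with a mean of at least 5). Most histone probe sets read messages without a poly(A) tail and with near-identical coding sequence, so values of single members are uncertain.

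Further genes higher on both days had roles in nucleotides and RNA. Itpa, the enzyme that clears inosine triphosphate, was at 8.31 and 8.37 with cluster B, against 7.60 and 7.74 with blank virus. Polr2h, a subunit shared by the nuclear RNA polymerases, was at 7.76 and 7.71 with cluster B, against 7.25 and 7.28 with blank virus. Both were higher on each cluster B array than on either blank virus array, as was Pus7, a pseudouridine synthase, at 6.45 and 6.04 against 6.0 and 5.63. Over the mean of its probe sets the difference of Pus7 was 0.19, against 0.43 for the brightest. The same mean was 0.32 against 0.47 for Polr2h, and 0.55 against 0.67 for Itpa. Cluster C with SKO, against the same blank virus arrays, gave 0.30 and 0.83 for Itpa and 0.32 and 0.63 for Polr2h. For Pus7 it gave 0.04 and 0.29. Chml, an escort protein for Rab GTPases, was at 5.95 and 5.64 with cluster B, against 5.17 and 4.47 with blank virus. Without SKO it lay on the other side, with differences of -0.46 and -1.39. Npy, neuropeptide Y, had 5.41 and 7.61 with cluster B, against 4.72 and 7.21 with blank virus. Here the groups overlapped and the days differed more than the viruses. The remaining genes higher on both days, Ccdc190, Hdhd3, Nudt22, Ica1 and Manbal, differed by 0.40 to 0.79.

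The genes lower on both days included the RNA of ribonuclease P, which trims the 5′ end of transfer RNAs. It was named although the naming rule left out most other small RNA genes. Rpph1, its RNA subunit, was at 10.66 and 11.55 with cluster B, against 11.42 and 12.06 with blank virus, so the groups overlapped. The related genes Rprl1 (6.35 and 6.86 with cluster B, against 7.04 and 7.63 with blank virus) and Rprl2 (6.80 and 7.60, against 7.74 and 8.15) were lower on each day as well. Mean differences of the 3 were -0.64 ± 0.15, -0.74 ± 0.16 and -0.74 ± 0.16. Because their sequences are nearly the same, 3 probe sets may read 1 RNA and are not 3 separate observations. Rmrp, the RNA of the related ribonuclease MRP, differed by -0.12 and -0.27, and Rn7sk, another short noncoding RNA, by 0.17 and -0.04; both were chosen after their values were seen. With cluster C, against the same blank virus arrays, Rpph1 differed by -0.54 and -0.53. Without SKO it differed by 0.00 and 0.04 with cluster B.

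Other genes lower on both days encoded proteins. Akirin1, a nuclear regulator of transcription, was at 6.16 and 5.98 with cluster B, against 6.66 and 6.57 with blank virus. Cluster C, against the same blank virus arrays, gave differences of 0.16 and 0.24 for this gene. The difference between the clusters was -0.75 (cluster B minus cluster C) and did not pass (limma adjusted p = 0.371). Lrrc75b was at 5.64 and 5.68 with cluster B, against 6.33 and 6.31 with blank virus. Trib3, a pseudokinase induced by stress, was at 4.87 and 5.30 with cluster B, against 5.37 and 5.72 with blank virus. Each cluster B array was below each blank virus array for these 3 genes. Bcl11a, a zinc finger repressor of transcription, differed by -0.41 and -0.36, Slitrk5, a synaptic membrane protein, by -0.42 and -0.36, and Erfe, the hormone erythroferrone, by -0.40 and -0.39. The others, Kncn, Ccdc92, Ifi207, Zfp108, Ankzf1 and Pars2, differed by -0.61 to -0.35. Ifi207, an interferon-inducible gene, was also below blank virus without SKO, by -0.27 and -0.50.

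**Figure D3:**
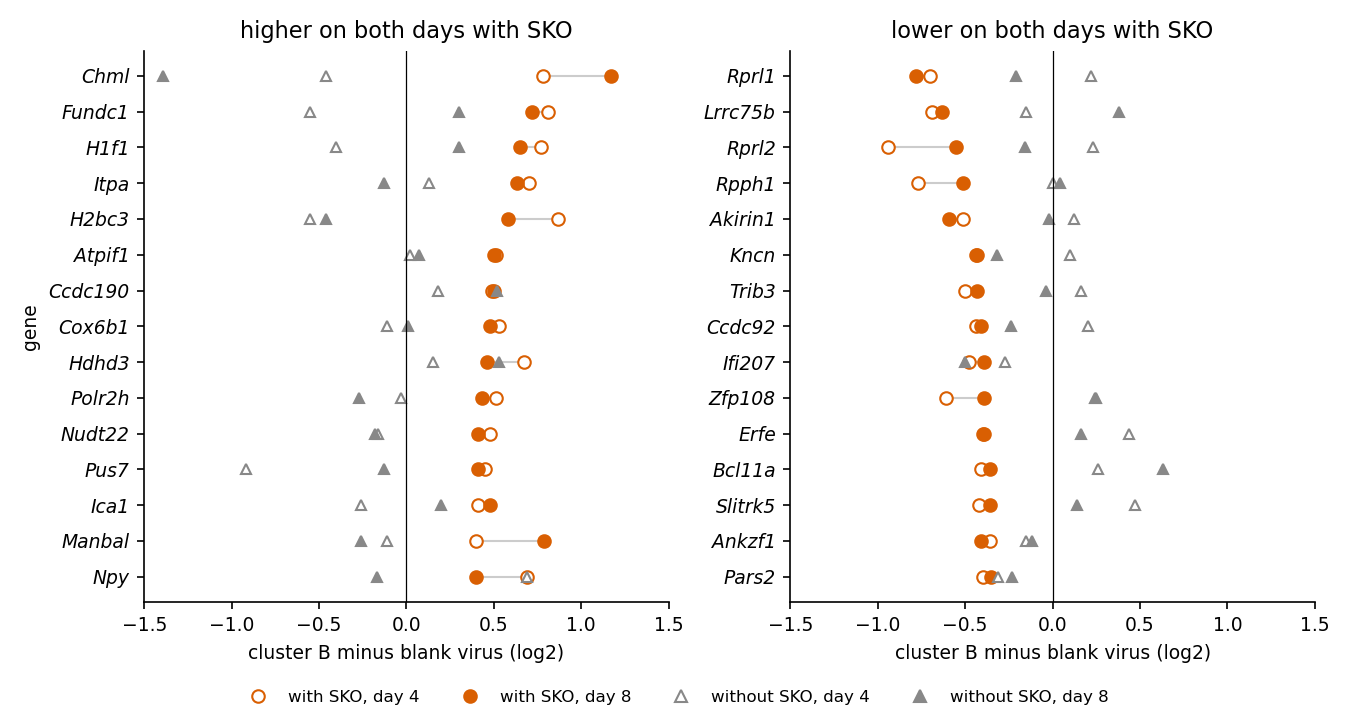
Log2 difference of cluster B minus blank virus for the 15 genes with the largest recurring higher difference (left) and lower difference (right). Circles are the arrays with SKO and triangles those without, open for day 4 and filled for day 8. The circles define the choice of genes. In each panel 3 of the 15 genes have both triangles on the same side of 0 as the circles.

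Across both panels, 3 of 15 higher genes were above 0 on both days without SKO (Atpif1, Ccdc190 and Hdhd3), and 3 of 15 lower genes were below 0 (Ifi207, Ankzf1 and Pars2). These shares are to be read against 25.9% and 22.5% of all genes. Over all genes, differences with and without SKO had a correlation of -0.17 on day 4 and 0.01 on day 8 (Pearson, 19938 genes, as a description).

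Genes that differed on 1 day were more numerous. Past 1.5-fold on day 4 with an absolute difference under 0.25 on day 8 were 134 genes higher and 224 lower. On day 8 with under 0.25 on day 4 there were 88 higher and 106 lower. These are single arrays against single arrays. A limma test set the day change with cluster B against the joint day change of blank virus and cluster C with SKO. It gave no gene past an adjusted p of 0.05, and 948 genes (4.75%) had an unadjusted p under 0.05. Because cluster C enters it, it does not measure the day difference from blank virus alone.

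Day 4 was marked by the interferon response, the genes that cells turn on when interferon receptors signal. Its 42 measured members had a median difference of -0.67 on day 4 and 0.28 on day 8. Over all genes both medians were 0.00. Below 0 on day 4 were 40 of 42 members (50.6% of all genes), and above 0 on day 8 were 40 of 42 (49.8%). The sign differed between the days for 38 members. Past 1.5-fold lower on day 4 were 25 of 42, beside 1.87% of all genes, and past 1.5-fold higher on day 8 were 4, beside 0.968%. In the limma test of day change against blank virus and cluster C together, 24 of 42 members had an unadjusted p under 0.05, beside 4.75% of all genes. The lowest adjusted p there was 0.986 (limma), and the day difference from blank virus alone is not what that test measures.

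Ifit1, whose protein binds viral RNA lacking the host cap methylation, was at 6.22 and 7.45 with cluster B on days 4 and 8, against 7.89 and 7.13 with blank virus. Ifit3, its partner, was at 5.59 and 6.23 with cluster B, against 7.13 and 5.78 with blank virus. Oasl2, a member of the oligoadenylate synthetase family, was at 6.40 and 7.56 with cluster B, against 7.93 and 7.15 with blank virus. For all 3, blank virus was higher on day 4 and cluster B on day 8. Usp18, the protease that removes Isg15 and dampens the pathway, was at 6.14 and 6.85 with cluster B, against 7.43 and 6.35 with blank virus. Stat2, a transcription factor of interferon signalling, was at 7.27 and 7.83 with cluster B, against 8.24 and 7.62 with blank virus, and Ifih1, a sensor of double-stranded RNA, at 5.91 and 6.56 against 6.90 and 6.46. The day 8 differences of these 2, 0.21 and 0.11, were small. The list's exceptions on day 4 were Irf1 (0.15 on day 4, 0.68 on day 8) and Ifi27 (0.17 and 0.06), and on day 8 Cxcl10 (-0.33 and -0.74) and Ifi205 (-1.13 and -0.22).

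**Figure D4:**
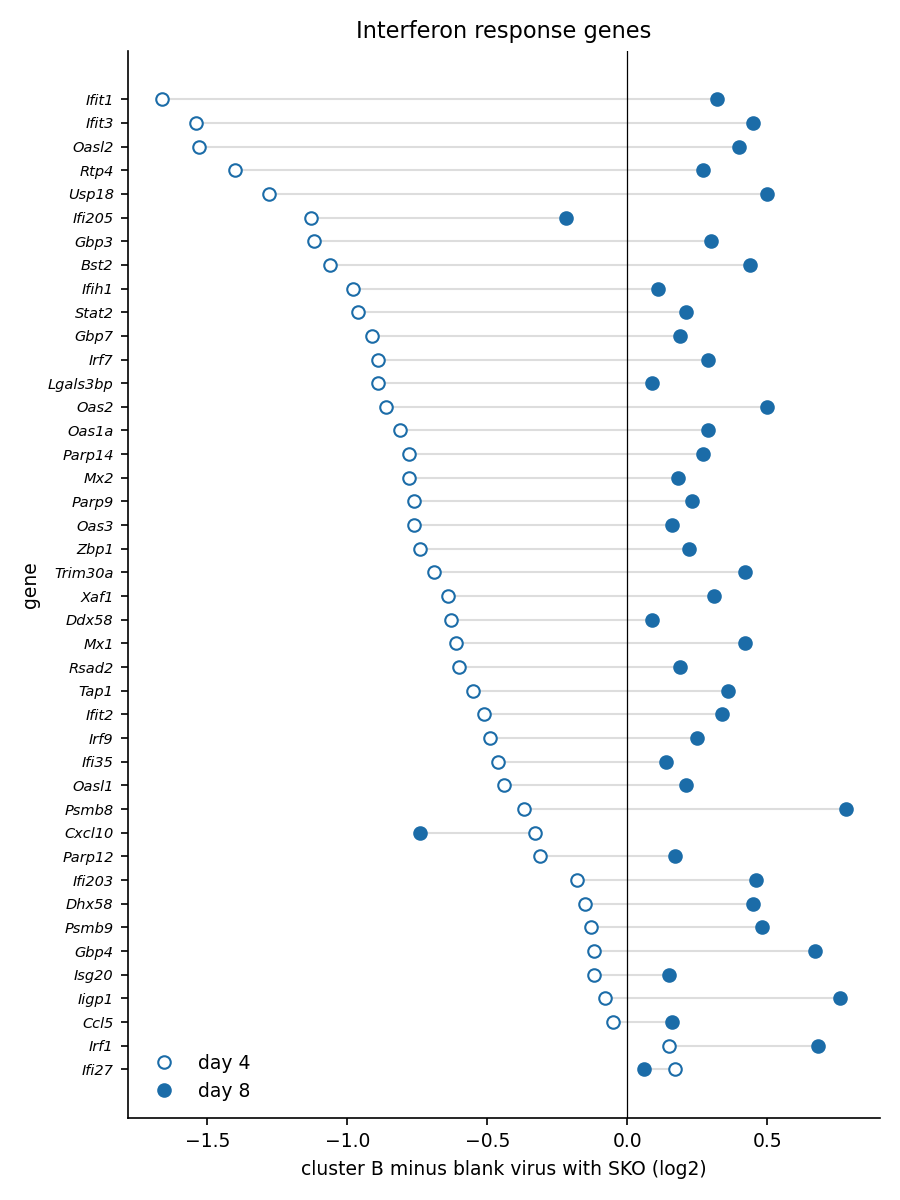
Log2 difference of cluster B minus blank virus with SKO for the 42 measured interferon response genes, ordered by day 4, with open points for day 4 and filled points for day 8. Day 4 points lie left of 0 for 40 genes, down to -1.66 for Ifit1, and day 8 points lie right of 0 for 40 genes, up to 0.78 for Psmb8.

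The median level of the interferon list was 5.95 and 6.80 with cluster B on days 4 and 8, against 6.90 and 6.46 with blank virus. With cluster C and SKO, against the same blank virus arrays, the median differences were -0.28 and 0.06. Without SKO, cluster B gave medians of 0.03 on day 4 and -0.36 on day 8, so the order of the days was the other way round there. Ifit1 without SKO was at 8.73 and 7.20 with cluster B, against 9.31 and 7.43 with blank virus. In bulk RNA of this kind, fewer responding cells and less RNA per cell cannot be told apart. Leukocyte markers did not follow the list: the median of 26 leukocyte genes was -0.02 on day 4 and -0.04 on day 8, with 12 and 11 of them above 0 and median levels of 4.31 and 4.54 with cluster B against 4.35 and 4.47 with blank virus. Ptprc, which defines leukocytes, was at 3.56 and 3.77 with cluster B, against 3.84 and 3.86 with blank virus, near the lower quartile of the arrays.

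Promoters of Ifit1 and Ifit3 are shown in part because both carry a sequence element known from interferon-induced genes. The motif, in capitals, is GAAA, any 2 bases (NN) and GAAA again, and was searched on both strands in RefSeq windows of GRCm38.p6 and here reads on the opposite strand. The Ifit1 stretch is chr19:34640765-34640833 and the Ifit3 stretch chr19:34583353-34583436, both on the plus strand and upstream of the gene start.
Ifit1: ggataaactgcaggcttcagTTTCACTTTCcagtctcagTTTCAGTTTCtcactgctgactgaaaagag
Ifit3: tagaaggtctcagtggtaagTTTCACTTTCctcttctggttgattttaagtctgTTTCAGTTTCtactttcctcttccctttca
Of the 29 interferon list genes with a promoter window, 15 held the motif (51.7%), against 3.44% of 32851 windows. Those 15 had median differences of -0.91 on day 4 and 0.21 on day 8, and the 14 without it -0.47 and 0.30. The 592 measured genes outside the list with the motif had medians of -0.02 and 0.02. A match describes the letters in the window and not binding.

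Antigen presentation genes, many of which interferon also induces, followed the same order at lower size. The 15 measured members of the class I list were all below 0 on day 4 (50.6% of all genes) and 9 were above 0 on day 8 (49.8%), with medians of -0.31 and 0.10. H2-Q4, a class I heavy chain gene, was at 6.06 and 8.07 with cluster B, against 6.73 and 7.24 with blank virus. B2m, the class I light chain, was at 10.86 and 11.86 with cluster B, against 11.13 and 11.58 with blank virus. Class I genes share long stretches of sequence, so single heavy chain genes are uncertain, which does not hold for B2m. Tap1, the peptide transporter that is also in the interferon list, differed by -0.55 and 0.36.

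Apart from this group, the genes of the day 4 list that the rule named were scattered. Oit1 was at 6.04 with cluster B on day 4, against 4.99 with blank virus. Nefl, the light neurofilament, was at 7.10 on day 4 with cluster B against 6.16 with blank virus. Krt13, an epithelial keratin, was at 6.11 with cluster B against 5.23. The other genes higher on day 4, Timm21, Rassf9, Depdc7, Prrg3 and Scn10a, differed by 0.90 to 1.13. Of the 8 named genes lower on day 4, 5 belong to the interferon list or are known to respond to interferon (Ifih1, Stat2, Gbp7, Lgals3bp and Herc6) and 1, Ifna14, encodes an interferon. These 8 were picked by the same day 4 values, so their make-up is a description and no further support. The list holds 42 of the 19938 genes, and the share of all genes known to respond to interferon was not counted. Herc6 was at 5.06 with cluster B on day 4, against 5.91 with blank virus, and Ifna14 at 4.66 against 5.73. Oprd1, the delta opioid receptor, and Kbtbd11 differed by -0.95 and -0.85.

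Among genes with a mean of at least 5, the largest difference on day 8 was that of Tomm5, a small subunit of the mitochondrial import channel. Its level was 6.35 with cluster B, against 4.36 with blank virus, and on day 4 it was 5.99 against 5.98. The blank virus array of day 8 stands apart from the other 3 for this gene. Foxa1, an endoderm and epithelial transcription factor, was at 5.80 on day 8 with cluster B against 5.04 with blank virus, Cldn4, a tight junction protein, at 6.14 against 5.39, and Irf1, a transcription factor induced by interferon, at 6.59 against 5.91. Pecr, Iigp1, Rtl8c and Foxi2 were higher by 0.66 to 0.78. Genes lower on day 8 included assembly factors of the mitochondrial respiratory chain. Coa6, for cytochrome c oxidase, was at 5.48 with cluster B against 6.5 with blank virus, and Uqcc3, for the cytochrome bc1 complex, at 5.79 against 6.45. Tmem11, Hmgn5, Nkrf, Bod1, Rabif and Rad51c were lower by differences of -0.84 to -0.62.

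Gene lists chosen for what the clusters and the factors are known for differed little. The delivered factors differed by 0.38 or less between the viruses. Pou5f1, the gene of Oct4, differed by 0.38 on day 4 and 0.24 on day 8, beside blank virus levels of 11.62 and 11.63, and Klf4 was at 8.67 and 8.91 against 8.70 and 8.63. Sox2 was at 5.43 and 6.04 with cluster B, against 5.47 and 5.77 with blank virus. None passed the test (limma adjusted p = 1.0 for each). Of 34 measured pluripotency genes that were not delivered, 8 were above 0 on day 4 (49.4% of all genes), 20 on day 8 (49.8%) and 6 on both days (24.4%). Nanog, a core factor of pluripotency, was at 5.33 and 6.39 with cluster B, against 5.34 and 6.34 with blank virus. Fbxo15, an early marker of reprogramming, was at 5.38 and 7.26 with cluster B, against 4.44 and 6.98 with blank virus. Dppa3, active in naive pluripotent and germ cells, was at 3.57 and 4.86 with cluster B, against 4.60 and 3.98 with blank virus, an order that the days did not share. For Nanog and Fbxo15 the days differed more than the viruses.

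Fibroblast markers gave high signal in both groups, with a median level of 9.06 and 9.51 with cluster B against 8.97 and 9.47 with blank virus, so the labelled cell type was borne out. Gene by gene their median difference was -0.18 on day 4 and -0.06 on day 8, with 8 and 9 of 12 below 0. Collagen and matrix genes were lower on day 4. Of 38 measured, 34 were below 0 on day 4 (50.6% of all genes), 22 on day 8 (50.2%) and 20 on both days (25.2%), with medians of -0.17 and -0.02. None was past 1.5-fold. Col11a1, a fibrillar collagen chain, was at 7.70 and 7.67 with cluster B, against 8.05 and 7.98 with blank virus. Col1a2, a chain of type I collagen, was at 11.71 and 11.50 with cluster B, against 12.13 and 11.64 with blank virus. Both were lower on each day by -0.42 to -0.14. With cluster C, against the same blank virus arrays, the list had medians of -0.31 and -0.29, and without SKO cluster B gave -0.08 and 0.00. Pdgfra and Pdgfrb, growth factor receptors of fibroblasts, differed by -0.44 and -0.43 on day 4 and by -0.06 and -0.07 on day 8.

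Cell cycle and ribosome lists lay slightly above 0. Of 39 measured genes of the G1/S transition and DNA replication, 31 were above 0 on day 4 (49.4% of all genes), 24 on day 8 (49.8%) and 18 on both days (24.4%), with medians of 0.12 and 0.03. Pcna, the sliding clamp of DNA replication, was at 9.90 and 9.44 with cluster B, against 9.60 and 9.37 with blank virus. Genes of G2/M and mitosis had medians of 0.11 and 0.05 over 36 measured. Ribosomal protein genes had medians of 0.09 and 0.04, with 20 of 36 above 0 on both days. Rpl38, of the large ribosomal subunit, was at 10.98 and 11.13 with cluster B, against 10.51 and 10.78 with blank virus. All genes with a mean of at least 5 had a median of 0.05 on day 4, so the day 4 shifts of these bright lists exceed that level by 0.07 or less. Of those genes 6712 of 10998 were above 0 on day 4, and 30.2% on both days. After quantile normalization the day 4 medians were 0.05 for G1/S, 0.04 for G2/M and 0.06 for ribosomal genes, beside -0.01 for genes with a mean of at least 5.

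Genes reported elsewhere as targets of the seed families printed above had medians near 0. Nearly all of them are bright, and genes with a mean of at least 5 had medians of 0.05 on day 4 and 0.00 on day 8, with 19.6% below 0 on both days. The 28 measured targets of the AAAGUGC seed had medians of 0.09 and -0.01, with 20 above 0 on day 4 and 12 on day 8. On both days 10 of them were above 0 and 6 below. The 24 targets of the AUUGCAC seed had medians of -0.01 and -0.03, with 5 above and 7 below 0 on both days. The 19 targets of the GUGCAAA seed had -0.01 and -0.08, with 4 above and 7 below. Against the brighter genes these last 2 lists lay lower on both days, by 0.08 or less, and no test was made of that. No target in these lists was past 1.5-fold on either day. The targets named next were all lower on both days and do not stand for their lists. Mylip, a ubiquitin ligase for lipoprotein receptors and a target of the AUUGCAC seed, was at 6.68 and 7.34 with cluster B, against 6.94 and 7.5 with blank virus. Zbtb4, a transcription repressor and a target of the AAAGUGC seed, was at 6.18 and 6.23 with cluster B, against 6.38 and 6.48 with blank virus. Tgfbr2, a receptor that maintains the mesenchymal state and a target of the same seed, differed by -0.11 and -0.10, less than its SE of 0.13. Repression of translation is not read by these arrays.

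Epithelial and keratinocyte lists had medians slightly above 0 on day 8. Of 35 measured keratinocyte and cornified envelope genes, 27 were above 0 on day 8 (49.8% of all genes) and 16 on both days (24.4%), with medians of 0.03 and 0.14. Past 1.5-fold higher on day 8 were 6 of 35, beside 0.968% of all genes. Sprr1a, a precursor of the cornified envelope, was at 4.33 and 5.34 with cluster B, against 4.1 and 4.2 with blank virus. Krtdap, a keratinocyte differentiation factor, was at 5.92 and 6.12 with cluster B, against 4.96 and 5.82 with blank virus. Both cluster B arrays were above both blank virus arrays for these 2 genes, though Krt5, a defining keratin of basal keratinocytes, was at 4.12 and 4.88 with cluster B, against 4.41 and 4.95 with blank virus. The epithelial list had medians of -0.03 and 0.12 over 42 measured. Among members with a mean of at least 5, the medians were 0.02 and 0.06 for the epithelial list (22 genes) and 0.19 and 0.10 for the keratinocyte list (8 genes). Cluster C with SKO, against the same blank virus arrays, had medians of 0.02 and 0.39 for the epithelial list. For the keratinocyte list it had 0.06 and 0.22. TGF-beta and BMP signalling genes had medians of -0.04 and 0.00, and p53 pathway genes of 0.07 and 0.04.

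**Figure D5:**
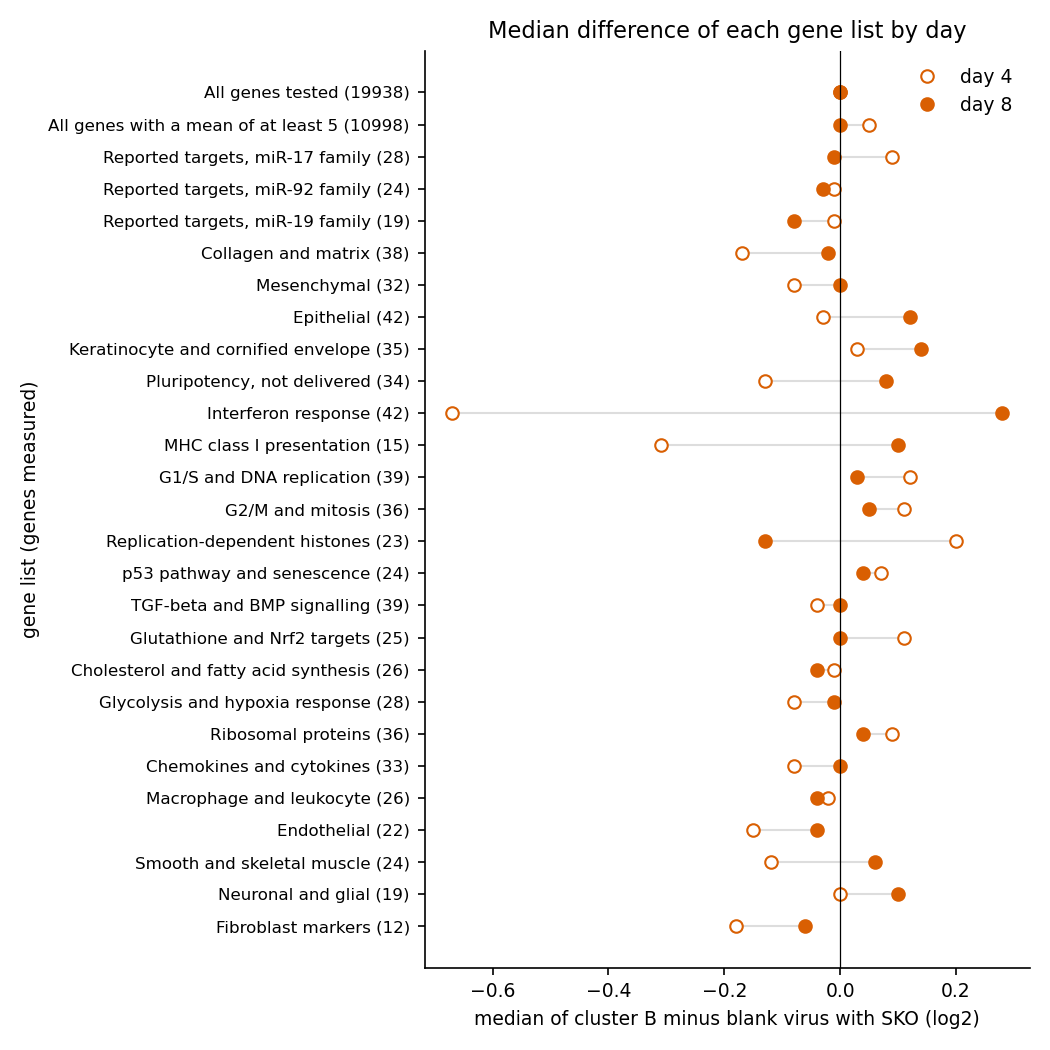
Median log2 difference of cluster B minus blank virus with SKO for the gene lists other than the microRNA clusters and the delivered factors, with the number of genes measured in brackets, open points for day 4 and filled points for day 8. The interferon list runs from -0.67 on day 4 to 0.28 on day 8 and the class I list from -0.31 to 0.10, and the medians of the other lists drawn lie between -0.18 and 0.20.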

How the data were processed

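Feeder cells were removed, and biotin-labelled cDNA from total RNA was, per the labels' protocols, read on whole-transcript arrays of Affymetrix. The authors deposited log2 values of 28853 probe sets on 12 arrays, made with RMA and Partek per the submitters' processing notes, without versions. RMA brings the arrays close to a common distribution, which hides a shift of the whole transcriptome. Lower quartiles of the deposited values still ran from 3.48 to 3.68. Of the probe sets 21789 had 1 gene in the platform annotation, 1621 several and 5443 none, and only the first were used. For 999 genes with several probe sets the brightest was kept.

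Differences between single arrays of the same day were computed for 19938 genes. The test was limma 3.58.1 (R 4.3.3), 1 fit over 12 arrays with 8 coefficients (SKO, day, virus, SKO by day, SKO by virus), with 4 residual and 4.94 prior degrees of freedom and Benjamini-Hochberg adjustment. The limma test of day change used a fit with 9 coefficients, in which the cluster C effect with SKO was the same on both days. Its estimate is therefore the day change with cluster B minus the mean day change of blank virus and cluster C. Printed day differences are between single arrays of cluster B and blank virus. P-values measure the spread between these arrays alone, which may be technical, and with 1 array per condition single days have no test. The number of arrays limits precision.

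Named genes were those past the threshold and, leaving out small RNA, receptor family, predicted and pseudogene names, the 15 higher and 15 lower with the largest smaller day difference at a mean of at least 5, then 8 and 8 for each single day, 4 and 4 of opposite sign, and up to 4 members of a described list. Names outside this rule (the other genes past 1.5-fold on both days, further microRNA, interferon and list genes, Rmrp, Rn7sk and Teddm3) were chosen after their values were seen. The exclusion of small RNA names did not catch Rpph1, Rprl1 and Rprl2, which are short noncoding RNAs. The comparison, the gene lists and the rule were chosen with earlier results of these data known.

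Alternatives were fits on 6 or 4 arrays, no day term, a variance trend, quantile normalization, equal medians, a brightness filter, every probe set, other fold thresholds and leaving out each array.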

Additional observations from a re-analysis of the deposited data

Results flagged for a closer look

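Several genes lay on opposite sides of blank virus on the 2 days, and the difference on day 8 minus that on day 4 is given for each. It was -1.47 for H2bc9, a core histone gene, -1.43 for Myef2, -1.23 for the Wnt receptor Fzd4 and -1.06 for the respiratory complex I subunit Ndufa1. In the other direction it was 1.82 for Tmem121, 1.51 for H2-Q4, 1.44 for H2aw and 1.27 for the interferon-induced GTPase Irgm1. Each was read from 1 array against 1 on each day. None passed the limma test of day change against blank virus and cluster C together, nor the added fit against blank virus alone. No gene had an adjusted p under 0.05 in either. H2bc9 was higher with cluster B without SKO on both days, by 1.46 and 1.38. The median of the interferon response list was -0.67 on day 4 and 0.28 on day 8, and the difference between these medians was not tested.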

How the results depend on the processing

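The 2 genes past the threshold became 1 when the fit used the 6 arrays with SKO or the 4 arrays with day as a block, where Olfr354 was lost and Mir363 kept, and also with every probe set. They became 0 with the 4 arrays and no day term, with a minimum change of 1.5-fold, and among genes with a mean of at least 5, a filter that removes both. Leaving out 1 array gave 0 to 2 genes. It gave 0 without any of the 4 arrays compared or without either cluster C array lacking SKO, and 1 without either cluster C array with SKO. Cluster B minus cluster C gave 4 genes, and 0 at a mean of at least 5. The limma test of day change gave 0 genes also with a cluster C effect free by day, a fit added after seeing the data. That fit sets cluster B against blank virus alone. The 11 genes higher on both days became 4 at a mean of at least 5, 21 over every probe set, 223 at 1.2-fold and 3 at 2-fold. The 8 lower ones became 2, 17, 391 and 2. Without 1 array only 1 day is left, which gives 193 to 207 higher and 183 to 372 lower. Quantile normalization moved list medians by at most 0.10 and equal array medians by at most 0.07. Keeping members with a mean of at least 5 moved more, to -0.51 on day 4 for the Mir106b to Mir25 list (against -0.10), 0.19 for keratinocyte genes (against 0.03) and, on day 8, -0.07 for neuronal genes (against 0.10). Arrays were matched by day in the main fit, and the labels number no replicates that could serve as a block.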
